A study of Mus musculus with 3 samples.

Results

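The nuclei described here came from the mouse submandibular gland and were selected on their own RNA to form an epithelial group, although some of them clustered with cells of other lineages. A nucleus was a member when it held UMIs (unique molecular identifiers, each standing for 1 captured RNA molecule) of at least 3 of 8 marker genes, Slc9a3, Dclk1, Wnt5b, Grip1, Pir, Fut9, Slco4c1 and Nkd2, and of at most 1 of 8 genes of other lineages, Lama2, Pdgfra, Ptprz1, Fhod3, Flt1, Ptprb, Ptprc and Cdh19. Of 27633 nuclei with at least 500 detected genes and at most 5% mitochondrial UMIs, 482 (1.74%) were members, with 2150296 UMIs. The study sequenced nuclei of fresh frozen glands of wild-type mice in 3 groups, with 1 library each and no replicates. The first group was irradiated and given pilocarpine, a muscarinic agonist that stimulates saliva secretion, from day 30 to day 90 (the pilocarpine library). The second was irradiated and given saline (the saline library), and the third was neither irradiated nor treated (the non-irradiated library). The labels name day 90 after irradiation in the titles and day 93 in the protocol for both irradiated groups. The strain, age, sex, radiation dose and number of animals were not given in the sources used here. With 1 library per group, a difference between groups cannot be told apart from a difference between libraries, so every interval in the text covers counting error only and no test between groups was possible.

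Acini of the salivary gland secrete a salt-rich fluid, and the ducts that carry it away take sodium and chloride back and add bicarbonate and potassium. Slc9a3 encodes NHE3, a sodium-proton exchanger of the apical membrane of absorbing epithelia. Dclk1 is a doublecortin-family kinase that binds microtubules and serves as a marker of chemosensory tuft cells in the intestine, while Wnt5b is a ligand of the beta-catenin-independent branch of Wnt signalling and Nkd2 is a Dishevelled-binding inhibitor of Wnt signalling. Among the other markers, Grip1 is a PDZ scaffold that sorts glutamate receptors and other membrane proteins, Fut9 is a fucosyltransferase that completes the Lewis x glycan, Slco4c1 is an organic anion transporter and Pir encodes the iron-binding nuclear protein pirin.

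The promoters of the 3 genes that give these nuclei their name are shown to set their sequences beside a Wnt-related motif. They run from 250 bases before to 50 bases after an annotated start in RefSeq (GRCm38.p6), 5′ to 3′ on the gene's own strand, and capitals mark CTTTGA, the core motif of the TCF and LEF factors of the beta-catenin branch, searched on both strands. The RefSeq table used holds 1 window for Slc9a3, 2 for Dclk1 and 3 for Wnt5b, and the window printed for Dclk1 and for Wnt5b is the one that holds the motif. The windows lie at chr13:74121163-74121462 on the plus strand for Slc9a3, chr3:55242114-55242413 on the plus strand for Dclk1 and chr6:119449337-119449636 on the minus strand for Wnt5b.
Slc9a3: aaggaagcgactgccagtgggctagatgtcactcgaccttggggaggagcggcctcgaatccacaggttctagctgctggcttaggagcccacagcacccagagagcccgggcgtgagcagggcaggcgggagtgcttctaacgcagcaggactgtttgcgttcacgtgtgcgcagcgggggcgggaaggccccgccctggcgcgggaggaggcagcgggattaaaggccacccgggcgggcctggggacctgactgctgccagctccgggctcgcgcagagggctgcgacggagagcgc
Dclk1: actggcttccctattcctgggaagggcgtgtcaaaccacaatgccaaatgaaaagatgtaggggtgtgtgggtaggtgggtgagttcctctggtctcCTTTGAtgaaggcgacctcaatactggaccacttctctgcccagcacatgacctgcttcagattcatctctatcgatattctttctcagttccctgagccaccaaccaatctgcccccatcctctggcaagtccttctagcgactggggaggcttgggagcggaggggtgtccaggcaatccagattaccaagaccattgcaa
Wnt5b: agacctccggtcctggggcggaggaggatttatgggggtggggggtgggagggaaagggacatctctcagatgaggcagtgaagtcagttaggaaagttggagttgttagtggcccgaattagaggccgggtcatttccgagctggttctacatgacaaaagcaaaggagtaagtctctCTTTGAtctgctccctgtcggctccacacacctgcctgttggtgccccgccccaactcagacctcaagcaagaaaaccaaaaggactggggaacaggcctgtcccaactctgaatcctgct
RefSeq promoters were found for 7 of the 8 marker genes. The motif stood in 1 promoter each of Dclk1, Wnt5b and Grip1, and in no other of the 12 promoters of the 7 genes. Among all 32851 promoters of the same length, 5257 (16%) held it, so the match is a description of these letters and not a site. The Slc9a3 and Nkd2 genes lie 273825 bases apart on chromosome 13.

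Not all members sat together when all nuclei were clustered by their RNA. Of 18 clusters, cluster 12 held 341 of the 482 members (70.7%), and it stayed unnamed because too few markers of any listed cell type were high in it. The other 141 members were spread over other clusters, among them 39 in the macrophage-like cluster, 36 in the granular convoluted duct-like cluster, 26 in the ionocyte-like cluster and 22 in the unnamed cluster 9, whose leading genes include the lymphatic endothelial genes Mmrn1, Prox1 and Flt4. They were deeper, with a median of 4825 UMIs against 1593 UMIs in cluster 12 members, and held 63.8% of all member UMIs. The deepest single member held 84707 of 987923 member UMIs in pilocarpine, 57640 of 884620 in saline and 30406 of 277753 in the non-irradiated library. A sum over all members can thus depend on single nuclei, which the counting intervals do not cover. Of the 36 members in the granular convoluted duct-like cluster, 8 came from the pilocarpine, 24 from the saline and 4 from the non-irradiated library. For that reason levels are given mainly for cluster 12 members, and comparisons between libraries for all members and for cluster 12 members. A doublet caller marked 0 nuclei, so it did not work and doublets were not removed. The libraries shared 93 barcodes, but no member barcode was shared with a member of another library.

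The number of markers a nucleus held went with its cluster. Among nuclei that passed the limit on other lineages, cluster 12 took 0.202% of those with 0 of the 8 markers and 6.12% of those with 1. Just outside the threshold, 311 nuclei held 2 markers, with a median of 1990 UMIs, and 107 of them (34.4%) were in cluster 12. Just inside it, 176 nuclei held 3 markers, with a median of 1749 UMIs, and 114 of them (64.8%) were in cluster 12. Cluster 12 also held 254 nuclei that were not members, 247 of them with fewer than 3 markers, and their median of 1169 UMIs was lower than that of the members. A further 294 nuclei had 3 or more markers but were dropped for more than 1 gene of another lineage, and 102 members held 1 such gene.

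Epithelial markers were present in cluster 12 members. Epcam, an adhesion molecule of epithelia, stood at 147 CPM (the counts-per-million unit, a gene's UMIs scaled to all UMIs of the summed nuclei) in pilocarpine, 169.8 CPM in saline and 116 CPM in non-irradiated cluster 12 members, at 119, 119 and 112 CPM in all members, against 103, 97.1 and 105 CPM in all other nuclei of the same libraries in that order. The adherens junction gene Cdh1 stood at 219.9, 270.3 and 300.0 CPM in the same order, and the epithelial transcription factor Ehf at 991, 1203 and 1094 CPM. Pdgfra of fibroblasts had 1 UMI in all cluster 12 members, Ptprc of leukocytes had 3, and Ptprb of endothelium had 1, but these genes were part of the selection. The 8 macrophage markers, which include Ptprc of the selection, summed to 90.6 CPM in pilocarpine, 76.3 CPM in saline and 38.7 CPM in non-irradiated cluster 12 members, against 200, 239 and 140.3 CPM in all other nuclei. In all members, with the deeper nuclei included, the macrophage markers summed to 159, 331 and 173 CPM, above other nuclei in saline and in the non-irradiated library, and what they add to the gene values of all members was not tested. The 7 pericyte or smooth muscle markers were not low: they summed to 189, 274 and 252 CPM in cluster 12 members, against 95.1, 103 and 63.5 CPM in other nuclei. Most of that sum was the receptor gene Notch3, at 176, 267 and 232 CPM against 46.5, 52.7 and 31.4 CPM, while Rgs5 was at 0 in all members; the part of such cells in these values was not tested.

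The marker genes themselves are described without a test, since they chose the nuclei. Dclk1 was detected most often, in 358 of the 482 members, and stood at 937 CPM in pilocarpine, 1383 CPM in saline and 919 CPM in non-irradiated cluster 12 members. Wnt5b was detected in 331 members, with 670.1, 1019 and 687 CPM in the same order, and Slc9a3 in 288 members, with 551, 742 and 474 CPM. The order of the libraries in these values is not read as a difference, since the same genes chose the nuclei. Dclk1 and Wnt5b occurred together in 240 members, Slc9a3 and Dclk1 in 213, and Slc9a3 and Wnt5b in 195. Among acinar-like nuclei, which had a median of 1858 UMIs against 2154 UMIs in members, only 0.131% held a Slc9a3 UMI, 0.334% a Dclk1 UMI and 0.826% a Wnt5b UMI.

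The other 5 markers are described in the same way, without a ranking of the libraries. Nkd2, found in 192 members, stood at 223 CPM in pilocarpine, 249.5 CPM in saline and 397 CPM in non-irradiated cluster 12 members, and Fut9 (313 members) at 608, 631 and 677 CPM. Grip1 (259 members) had 556, 839 and 813 CPM, Slco4c1 (115 members) 111, 201 and 155 CPM, and Pir (163 members) 308, 378 and 213 CPM. Fut9 was the marker least limited to these nuclei, with 167, 246 and 208 CPM in ionocyte-like nuclei, where 38.8% held a UMI of it. Nkd2 was also found in 9.55% and Grip1 in 8.85% of ionocyte-like nuclei, while Pir stood at 3.80, 1.96 and 5.95 CPM there. Of the 16 genes of the rule, the 8 of other lineages ranged in members up to 90.0 CPM, the Lama2 level in the non-irradiated library.

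**Figure D1:**
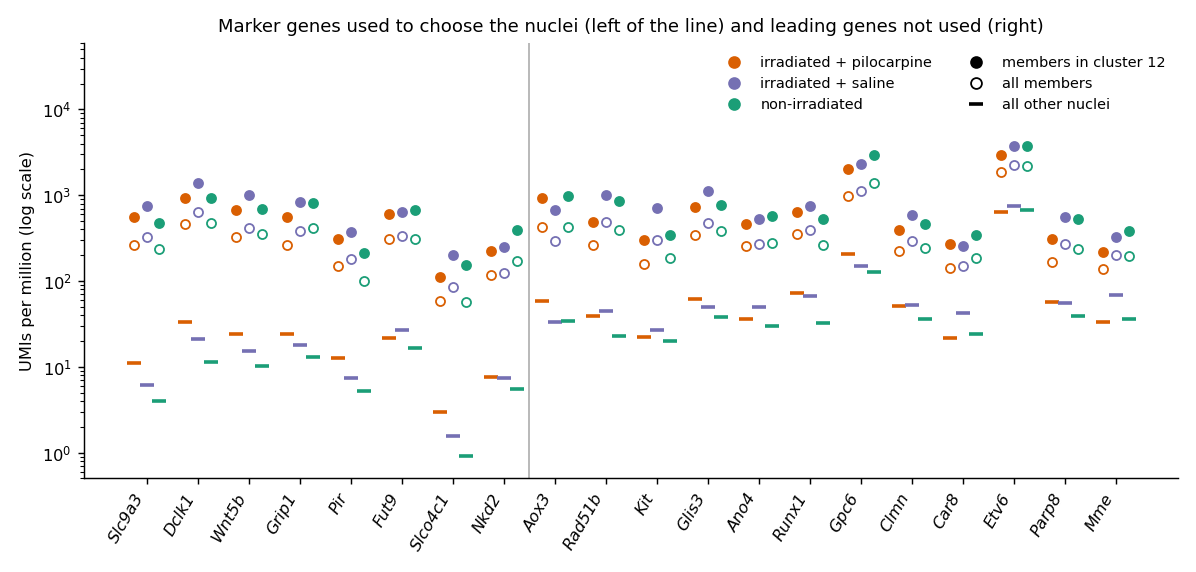
CPM (log scale) of the 8 marker genes that chose the nuclei and of 12 leading genes that did not, in pilocarpine, saline and non-irradiated libraries. Filled circles are members in cluster 12, open circles all members and dashes all other nuclei of the same library; cluster 12 members lie above all members, and all members above other nuclei, for every gene drawn.

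Genes outside the rule that were high in members included transcription factors, surface proteins and enzymes. Of 6730 genes with at least 50 member UMIs, 126 (1.87%) were at least 2-fold higher in members than in other nuclei in each of the 3 libraries, with an interval that left out 1, and 12 (0.178%) were at least 2-fold lower. The 126 include the 8 marker genes of the rule and the 12 include Lama2 and Fhod3, which leaves 118 and 10 genes that did not choose the nuclei, though all describe nuclei chosen or clustered by their RNA. Kit, the receptor of stem cell factor and a marker of salivary duct progenitors, stood at 300.1 CPM in pilocarpine, 711 CPM in saline and 348 CPM in non-irradiated cluster 12 members. All other nuclei held 22.5, 26.7 and 20.0 CPM of Kit, acinar-like nuclei 2.78, 2.54 and 3.25 CPM, but ionocyte-like nuclei 245, 274 and 267 CPM, so that Kit was shared with ionocyte-like nuclei. The ratio of all members to other nuclei was 6.98 (95% interval 5.83 to 8.31) in pilocarpine, 11.2 (9.66 to 12.9) in saline and 9.18 (6.74 to 12.3) in the non-irradiated library.

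Among the 25 leading genes were several transcription regulators. Glis3, a zinc finger factor, stood at 732, 1119 and 765 CPM in pilocarpine, saline and non-irradiated cluster 12 members, against 62.2, 49.7 and 38.5 CPM in other nuclei. Runx1, better known from blood formation, stood at 644, 759 and 523 CPM, against 71.9, 67.5 and 32.7 CPM, and Etv6, an ETS-family repressor, at 2924, 3795 and 3755 CPM, against 641, 741 and 666 CPM. The Notch coactivator Maml2 and the deacetylase Hdac9 belonged to the same group. Each of these genes was higher in members in all 3 libraries, but the granular convoluted duct-like nuclei also held 144, 114 and 61.4 CPM of Runx1.

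Surface and matrix proteins formed a further group of leading genes. Gpc6, a heparan sulfate glypican, stood at 2028 CPM in pilocarpine, 2326 CPM in saline and 2923 CPM in non-irradiated cluster 12 members, against 209, 151 and 127 CPM in other nuclei. Mme, the membrane metallopeptidase neprilysin, had 219.9, 322 and 387 CPM against 33.0, 67.9 and 36.1 CPM. The latrophilin Adgrl3 and the Hedgehog coreceptor Boc were leading genes too, with ratios of all members to other nuclei between 2.14 and 5.11.

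Enzymes were among the leading genes as well. Aox3, an aldehyde oxidase, had 937 CPM in pilocarpine, 665 CPM in saline and 978 CPM in non-irradiated cluster 12 members, against 57.9, 33.2 and 34.5 CPM in other nuclei, and ratios over all members of 7.27, 8.92 and 12.2. A leading gene of homologous recombination, Rad51b, had 492, 1005 and 852 CPM against 38.9, 45.0 and 22.6 CPM. Cyp2f2 and Itprid1 were leading genes that were not particular to members: granular convoluted duct-like nuclei held 749, 682 and 604 CPM of Cyp2f2, above the 603 and 669 CPM of pilocarpine and saline cluster 12 members and below the 707 CPM of non-irradiated ones. The rest of the 25 were Ano4, Clmn, Car8, Parp8, Plcb1, Sestd1, Greb1l, Kctd1, Ccbe1, Gulp1 and Nav2.

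Genes of duct salt transport gave a mixed picture. Of 25 measured genes of that list, 2 were at least 2-fold higher in members than in other nuclei in all libraries, beside 1.87% of all genes. Against granular convoluted duct-like nuclei, 7 of the 25 were at least 2-fold higher and 6 lower in cluster 12 members in all libraries, beside 5.30% and 4.18% of all 6730 genes. Slc4a4, a sodium bicarbonate cotransporter, stood at 85.4 CPM in pilocarpine, 72.8 CPM in saline and 77.4 CPM in non-irradiated cluster 12 members, against 12.6, 16.2 and 10.1 CPM in other nuclei. Car2, the cytosolic carbonic anhydrase that forms bicarbonate, stood at 54.3, 156 and 87.1 CPM, against 8.37, 12.8 and 9.61 CPM. The epithelial sodium channel subunit Scnn1b went the other way, with 10.3, 17.3 and 0 CPM in cluster 12 members, against 399, 488 and 413 CPM in granular convoluted duct-like nuclei. The potassium channel gene Kcnq1 was likewise low, with 28.5, 6.93 and 38.7 CPM against 356, 421 and 416 CPM. Cftr, the chloride channel, lay between, with 153, 152 and 96.8 CPM in cluster 12 members, against 217, 340.1 and 279 CPM in granular convoluted duct-like and 5.88, 8.07 and 11.4 CPM in acinar-like nuclei.

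Genes of ionocytes were uneven in these nuclei. Atp6v1b1, a V-ATPase subunit of acid-secreting cells, stood at 90.6 CPM in pilocarpine, 128 CPM in saline and 77.4 CPM in non-irradiated cluster 12 members, and at 41.8, 78.3 and 75.0 CPM in ionocyte-like nuclei. The ionocyte factor Ascl3 stood at 0, 0 and 9.68 CPM in cluster 12 members, against 135, 294 and 140.4 CPM in ionocyte-like nuclei. Stap1, an adaptor protein, stood at 0, 0 and 9.68 CPM as well, against 466, 569.9 and 426 CPM. In the pump, the subunit Atp6v0d2 was at 5.17, 13.9 and 0 CPM in cluster 12 members and at 239, 355 and 332 CPM in ionocyte-like nuclei. Of the 10 ionocyte markers, 6 had at least 50 UMIs. Only 1 of the 6, Atp6v1b1, was at least 2-fold higher in members than in other nuclei in all libraries, beside 1.87% of all genes. The 10 markers summed to 6970.1 CPM in pilocarpine, 8346 CPM in saline and 6455 CPM in non-irradiated cluster 12 members, against 4730.4, 5523 and 4713 CPM in other nuclei. Most of that sum was the potassium channel gene Kcnma1, at 5894, 6526 and 5178 CPM, against 4121, 4031 and 3903 CPM in other nuclei. In ionocyte-like nuclei the 10 markers summed to more, 10978, 13873 and 11502 CPM in the same order.

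Tuft cell genes other than Dclk1 were near or at 0. Of 20 other tuft genes, 10 had no UMI in any member and 16 none in cluster 12 members. Pou2f3 and Trpm5, the factor and the ion channel that define tuft cells, were among them. The list summed to 59.5 CPM in pilocarpine, 76.3 CPM in saline and 38.7 CPM in non-irradiated cluster 12 members, most of it from Plcg2, the only member with 50 UMIs, which stood at 44.0, 65.9 and 38.7 CPM and reached 243, 281 and 294 CPM in ionocyte-like nuclei.

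Basal keratins were near 0 in cluster 12 members, while Krt7 and Sox9 were above other nuclei. The basal keratins Krt5 and Krt14 had 2 UMIs and 1 UMI in all cluster 12 members. The 10 basal duct markers summed to 64.7 CPM in pilocarpine, 52.0 CPM in saline and 106 CPM in non-irradiated cluster 12 members. Other nuclei held 263, 242 and 201 CPM and acinar-like nuclei 42.1, 46.8 and 49.5 CPM, and no cluster was named basal duct. Krt7, a simple epithelial keratin of ducts, stood at 82.8 CPM in pilocarpine, 128 CPM in saline and 145 CPM in non-irradiated cluster 12 members, against 25, 38.2 and 25.1 CPM in other nuclei. Sox9, a factor of duct and progenitor cells, stood at 282, 506 and 242 CPM against 96.7, 75.7 and 76.0 CPM. Of 12 measured keratin and progenitor genes, Krt7 and Kit passed 2-fold in all members and all libraries, beside 1.87% of all genes. Gfra3, a neurotrophic factor coreceptor listed as an intercalated duct marker, stood at 62.1, 48.5 and 58.1 CPM in cluster 12 members and at 5.04, 2.90 and 3.36 CPM in other nuclei. Smgc, a secretory product of intercalated and proacinar cells, gave 12.9 and 3.47 CPM in pilocarpine and saline cluster 12 members and 174 CPM in non-irradiated ones, and since the Smgc and Muc19 genes overlap, its reads may be split between them.

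**Figure D2:**
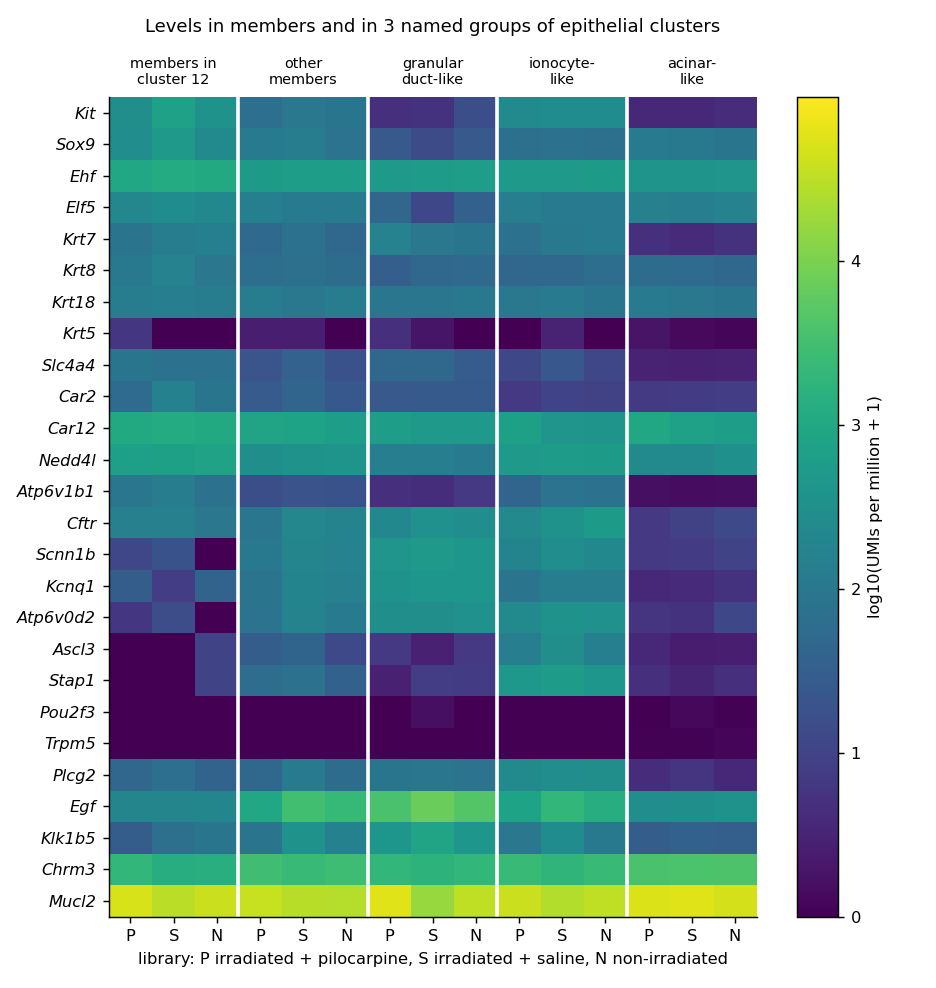
Levels of 26 genes as log10(CPM + 1), in members in cluster 12, the other members and granular convoluted duct-like, ionocyte-like and acinar-like nuclei, with pilocarpine (P), saline (S) and non-irradiated (N) libraries side by side. Brighter cells are higher levels: Kit, Sox9, Slc4a4 and Car2 are brighter in cluster 12 members than in granular convoluted duct-like nuclei, and Scnn1b, Kcnq1 and Egf are darker.

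Wnt receptors were measured beside the ligand that marks these nuclei. None of the 8 with 50 UMIs was 2-fold higher or lower in members than in other nuclei in all libraries, where 1.87% and 0.178% of all genes were. Set against granular convoluted duct-like nuclei, 2 of the 8 were higher in cluster 12 members, beside 5.30% of all genes. Lrp6, a Wnt coreceptor, stood at 194 CPM in pilocarpine, 267 CPM in saline and 300.0 CPM in non-irradiated cluster 12 members, against 165, 175 and 169 CPM in other nuclei. Ror2, a receptor for Wnt5 ligands, had 0, 6.93 and 19.4 CPM. Of the 19 Wnt and R-spondin ligands other than Wnt5b, 9 had no UMI in any member, and the only one measured was Wnt4, at 59.5, 52.0 and 58.1 CPM against 191, 216 and 266 CPM in granular convoluted duct-like nuclei. Axin2, a target of beta-catenin signalling, had 10.3, 3.47 and 9.68 CPM. The corepressor Tle4 was higher in cluster 12 members, with 135, 198 and 155 CPM against 40.3, 36.1 and 23.5 CPM in other nuclei, and Tle1 likewise, with 145, 249.5 and 145 CPM against 50.4, 61.9 and 53.8 CPM.

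Genes of signal reception and transport completed the description. Egfr stood at 561, 624 and 619 CPM in pilocarpine, saline and non-irradiated cluster 12 members, against 239, 208 and 195 CPM in other nuclei. Its ligand gene Egf stood at 191, 191 and 194 CPM there, against 3719, 7261 and 4682 CPM in granular convoluted duct-like nuclei, and all 13 measured products of the granular tubule were at least 2-fold lower in cluster 12 members than in those duct-like nuclei in all libraries, beside 4.18% of all genes. Chrm3, a muscarinic receptor through which pilocarpine acts on the gland, stood at 2036, 1303 and 1452 CPM, against 3060.1, 2786 and 3368 CPM in other nuclei and 3676, 3799 and 3968 CPM in acinar-like nuclei. Plcb1, a phospholipase C of that pathway, was high in members, at 1050.4, 1341 and 890.4 CPM in cluster 12 members against 191, 204 and 173 CPM, and also in ionocyte-like nuclei, at 764, 1122 and 927 CPM. The exporters Abcc1 and Abcc4, the core fucosyltransferase Fut8 and the ephrin receptor Epha4 were each at least 2-fold higher in members in all libraries. Mucl2, an abundant acinar secretory product, gives a measure of acinar RNA in these nuclei. It reached 50136, 30805 and 39207 CPM in cluster 12 members, against 54857, 57597 and 48245 CPM in acinar-like nuclei. The 12 acinar markers, Mucl2 among them, summed to 58058, 36506.5 and 44453 CPM in cluster 12 members. Their sum was also high in other nuclei that were not acinar-like. It was 62181.5, 19863.5 and 36543 CPM in granular convoluted duct-like nuclei, and 50319, 34901 and 41240 CPM in ionocyte-like nuclei.

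Members took a larger share of nuclei in both irradiated libraries than in the non-irradiated one. Members made up 206 of 8376 nuclei in the pilocarpine library (2.46%, exact 95% interval 2.14% to 2.81%), 198 of 8622 in the saline library (2.30%, 1.99% to 2.64%) and 78 of 10635 in the non-irradiated library (0.733%, 0.580% to 0.915%). The saline share exceeded the non-irradiated one by 1.56 points (1.22 to 1.93), a ratio of 3.13, and the pilocarpine share exceeded the non-irradiated one by 1.73 points (1.37 to 2.11). Between pilocarpine and saline the difference was 0.163 points, with an interval from -0.296 to 0.624 that includes 0. These 3 differences share libraries and are not independent.

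Depth bears on a rule that counts detected genes, and the median of kept nuclei was 2048 UMIs in the pilocarpine, 2113 in the saline and 1536 in the non-irradiated library. With every nucleus thinned to 1000 UMIs, which left out 1010, 1178 and 2221 shallower nuclei in that order, members made up 1.29% in pilocarpine, 1.22% in saline and 0.440% in non-irradiated nuclei. The ratio of saline to non-irradiated shares was then 2.78. Counting only members in cluster 12, the shares were 1.87%, 1.44% and 0.564%, and here pilocarpine exceeded saline by 0.436 points (0.0523 to 0.825). Counting all nuclei of cluster 12, member or not, they were 3.25%, 2.30% and 1.18%, and pilocarpine exceeded saline by 0.951 points (0.458 to 1.45). With thinning and cluster 12 together they were 1.17%, 0.994% and 0.416%, and the interval of pilocarpine minus saline included 0 again (-0.162 to 0.512). A share also moves with the number of all other nuclei, so these shares do not give the number of such cells in the gland.

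**Figure D3:**
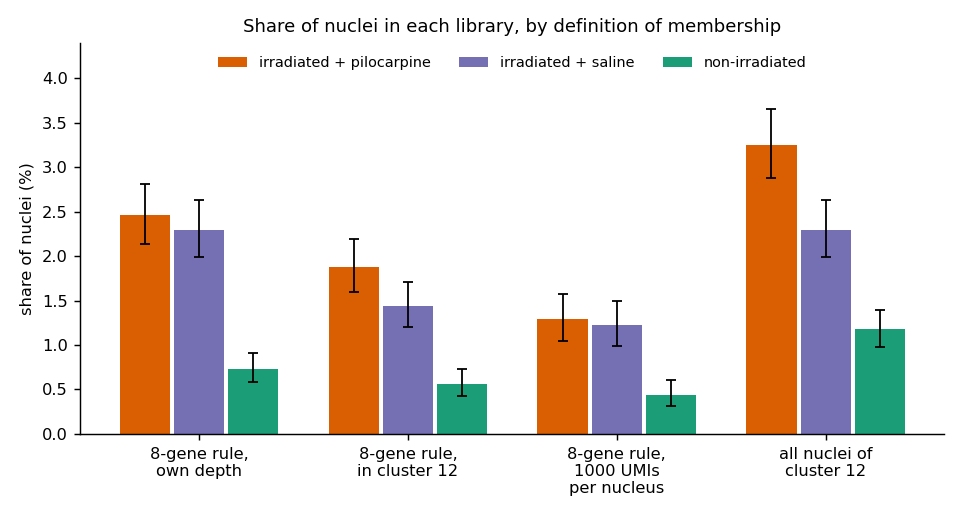
Share of nuclei (%) in pilocarpine, saline and non-irradiated libraries under 4 definitions of membership, with exact 95% binomial intervals that cover counting error only. Under each definition the pilocarpine and saline bars stand above the non-irradiated bar.

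To ask what pilocarpine after irradiation went with, UMIs were summed over the members of a library and set against each other as CPM. A gene was called when it had at least 50 UMIs in both libraries together, differed at least 2-fold and had a counting interval of the ratio that left out 1. In pilocarpine over saline members, 49 of 6239 genes (0.785%) were called higher and 150 (2.40%) lower, but in cluster 12 members the balance was the other way, with 78 of 2887 genes (2.70%) higher and 38 (1.32%) lower. Most of the calls made in all members could not be read in cluster 12 alone: 14 of the 49 higher genes had 50 UMIs there, of which 9 were called, and 28 of the 150 lower genes had 50 UMIs there, of which 10 were called. The other nuclei of the 2 libraries moved the same way for 48 of the 49 and 136 of the 150 genes, and by at least 2-fold for 0 and 57. How many of all tested genes did so was not counted, so nothing is concluded from these overlaps. With the 8% of nuclei of highest doublet score left out of each library, 149 genes were called higher in members, and thinning to 1000 UMIs brought the counts to 16 and 35. The scores came from the doublet caller that did not work, so leaving those nuclei out need not remove doublets.

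Granular tubule products were lower in pilocarpine than in saline members when all members were counted, but hardly so in cluster 12. All 17 genes of that list with at least 10 UMIs were lower in pilocarpine than in saline members. Their median log2 ratio was -1.67, against -0.02 over all 11349 genes with at least 10 UMIs. Of the 12 with at least 50 UMIs, 9 were called lower, beside 2.40% of all genes. In cluster 12 members the median log2 ratio of the list was -0.17, with 9 of 12 genes lower. None of the 5 with 50 UMIs there was called, and in other nuclei the median was -1.46. The kallikrein gene Klk1b5 stood at 60.7 CPM in pilocarpine and 272 CPM in saline members (ratio 0.223, 0.165 to 0.297), and at 28.5 and 69.3 CPM in cluster 12 members (0.411, 0.178 to 0.899). Klk1b22 had a ratio of 0.267 in all members and 1.37 in cluster 12 members, and Klk1b11 of 0.311 and 0.995. These kallikreins are near-identical copies, so reads may be assigned to the wrong one. Egf, a growth factor of the granular tubule, had a ratio of 0.314 in all members, but 1.00 in cluster 12 members. The 12 granular convoluted duct markers summed to 2398 CPM in pilocarpine, 6813 CPM in saline and 4252 CPM in non-irradiated members, against 1188, 1161 and 1103 CPM in cluster 12 members.

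Of the remaining named genes that were lower in pilocarpine members, Coro2a was also lower in cluster 12 members, while the others had a ratio nearer 1 or too few UMIs there. Slit2, an axon guidance ligand, stood at 1010.2 CPM in pilocarpine and 2688 CPM in saline members (ratio 0.376), but at 233 and 312 CPM in cluster 12 members (0.746, 0.551 to 1.01). Crisp3, a secreted cysteine-rich protein, had 375 and 1343 CPM (0.279), and 223 and 305 CPM in cluster 12 members (0.730). Zfp804b, a zinc finger gene, had a ratio of 0.201 in all members but only 3 UMIs in pilocarpine and 1 in saline cluster 12 members. Coro2a, an actin-binding coronin, kept its direction, with 18.2 and 84.8 CPM in all members (0.215) and 33.6 and 97.0 CPM in cluster 12 members (0.347, 0.165 to 0.691). Me3, the mitochondrial malic enzyme, had ratios of 0.346 in all members and 0.533 (0.256 to 1.09) in cluster 12 members.

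Kit was lower in pilocarpine than in saline members, within cluster 12 as well. It stood at 157 CPM in pilocarpine and 297 CPM in saline members (ratio 0.528, 0.430 to 0.646). In cluster 12 members it stood at 300.1 and 711 CPM (0.422, 0.333 to 0.533), with a UMI in 69 of 157 pilocarpine and 73 of 124 saline nuclei, whose median depths were 1695 and 1748 UMIs, and in other nuclei at 22.5 and 26.7 CPM (0.844). The pilocarpine level in cluster 12 members was near the non-irradiated 348 CPM. Within cluster 12 Rad51b had a ratio of 0.489 (0.405 to 0.589), Car2 of 0.348 (0.197 to 0.597) and Dach2, a transcription cofactor, of 0.411 (0.310 to 0.543), and these 3 genes were singled out after their values were seen.

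Slc7a1, a cationic amino acid transporter, led with 133 CPM in pilocarpine and 48.6 CPM in saline members (ratio 2.73, 1.92 to 3.95), with 93.1 and 27.7 CPM in cluster 12 members (3.36, 1.54 to 8.37) and 129 and 109.5 CPM in other nuclei (1.18). Ppib, a cyclophilin of the endoplasmic reticulum, had ratios of 2.45 in all members, 3.36 in cluster 12 members and 1.10 in other nuclei. Sema4g, a semaphorin, had 2.82, 3.73 and 1.72, and Azgp1, a secreted glycoprotein, 3.67, 4.48 and 1.00. Tsta3, which makes GDP-fucose, had 2.52, 2.54 and 1.37, and Sntg1, a syntrophin, 2.42, 2.24 and 1.07, but 0.892 over members with no gene of another lineage. Pml and the calcium sensor Ncald led by their intervals but stayed under 2-fold, at 1.86 and 1.56 in all members.

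Of the lists, the acinar secretory products and the unfolded protein response leaned upward. Among all genes with 50 UMIs, 0.785% were called higher and 2.40% lower in all members, and 2.70% and 1.32% in cluster 12 members. Acinar products had a median log2 ratio of 0.86 in all members (9 of 11 above 0, 3 of 8 with 50 UMIs called higher), 1.19 in cluster 12 members and 0.31 in other nuclei. Mucl2 moved the same way, with 50136 CPM in pilocarpine and 30805 CPM in saline cluster 12 members, and what acinar RNA adds to the list was not tested. The higher sum of the list in pilocarpine than in saline was not particular to cluster 12 members (61595 against 36101 CPM). Granular convoluted duct-like nuclei held 65243 against 19861 CPM and ionocyte-like nuclei 54567 against 35159 CPM, while acinar-like nuclei held 77660 against 78421 CPM. The unfolded protein response genes had a median of 0.40 in all members (19 of 23 above 0, none of 18 with 50 UMIs called), 0.52 in cluster 12 members (15 of 20 above 0, 3 of 10 with 50 UMIs called higher) and 0.12 in other nuclei. Immediate early genes leaned down, with a median of -0.47 in all members (12 of 15 below 0, 2 of 6 with 50 UMIs called lower), -0.33 in cluster 12 members and -0.35 in other nuclei, and Egr1 had 5 UMIs in pilocarpine and 18 in saline members. Nuclear oxidative phosphorylation genes had a median of -0.31 in all members (36 of 47 below 0, none of 24 with 50 UMIs called), -0.11 in cluster 12 members and -0.06 in other nuclei. For genes of muscarinic and calcium signalling the median was -0.14, with none of 21 measured genes called in either direction.

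**Figure D4:**
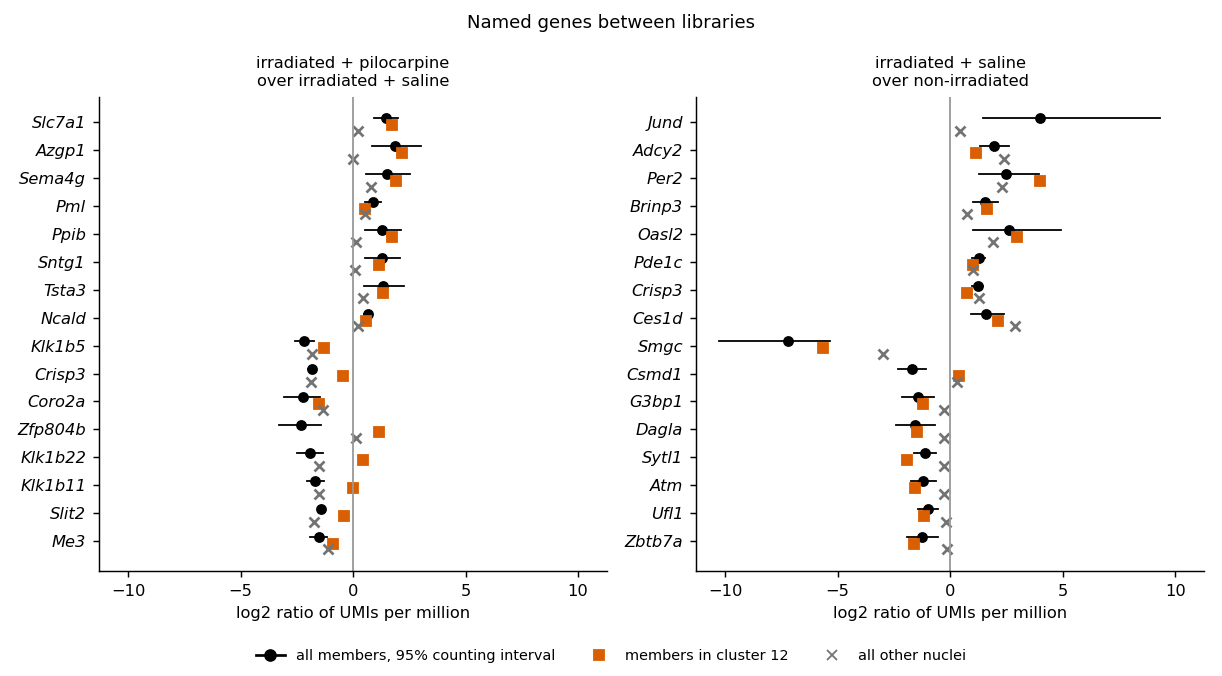
Log2 ratio of CPM in pilocarpine over saline (left) and saline over non-irradiated members (right), for 16 named genes each. Black circles with 95% counting intervals are all members, orange squares members in cluster 12 and grey crosses all other nuclei; Zfp804b and Klk1b22 on the left and Csmd1 on the right have squares on the other side of 0 from the circles. Jund has no square, since it had no UMI in non-irradiated cluster 12 members.

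Irradiation with saline was set against no irradiation in the same way. In saline over non-irradiated members, 132 of 4585 genes (2.88%) were called higher and 42 (0.916%) lower, and in cluster 12 members 53 of 1704 (3.11%) and 23 (1.35%). In cluster 12 members, 23 of the 132 had 50 UMIs and 14 were called, and 4 of the 42 had 50 UMIs and 3 were called. Other nuclei moved the same way for 118 of the 132 and 35 of the 42 genes, and by at least 2-fold for 41 and 3. The same was not counted over all tested genes, so nothing is concluded from these overlaps. The non-irradiated members held only 277753 UMIs, against 884620 in saline members, and low genes are less well measured there. The 3 comparisons share their libraries and are not independent.

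Interferon, antigen presentation and DNA damage genes leaned higher in saline members. Among all genes with 50 UMIs in all members, 2.88% were called higher and 0.916% lower. The interferon response list had a median log2 ratio of 0.65 in all members (17 of 22 above 0, 5 of 13 with 50 UMIs called higher and none lower), 0.99 in cluster 12 members and 0.98 in other nuclei, against 0.03 over all genes in members. Oasl2, an interferon-induced gene, stood at 66.7 CPM in saline and 10.8 CPM in non-irradiated members (ratio 6.17, 2.01 to 30.8, with 59 UMIs in saline and 3 in non-irradiated members), and at 61.9 and 16.5 CPM in other nuclei. Antigen presentation genes of MHC class I had a median of 0.71 in all members (8 of 12 above 0, 2 of 5 with 50 UMIs called higher), 0.50 in cluster 12 members and 0.53 in other nuclei, and H2-Q7 stood at 55.4 and 18 CPM (3.08, 1.23 to 9.90). The p53 and DNA damage list had a median of 0.46 in all members (14 of 22 above 0, none of 8 with 50 UMIs called), 0.91 in cluster 12 members (13 of 15) and 0.72 in other nuclei.

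Clock repressors and immediate early genes leaned higher as well. Per2, a repressor of the circadian clock, stood at 119.8 CPM in saline and 21.6 CPM in non-irradiated members (ratio 5.55, 2.47 to 15.5), and at 93.9 and 18.9 CPM in other nuclei (4.98). The list of clock repressors and output genes had a median of 0.58 in all members (9 of 13 above 0, 2 of 10 with 50 UMIs called higher, beside 2.88% of all genes), 0.30 in cluster 12 members and 0.75 in other nuclei. Immediate early genes had a median of 0.92 in all members (10 of 13 above 0, 1 of 4 with 50 UMIs called higher), 1.23 in cluster 12 members (5 of 5 above 0, none measured at 50 UMIs) and 0.44 in other nuclei, and Jund, an AP-1 subunit, had 51 UMIs in saline and 1 UMI in non-irradiated members (ratio 16, 2.75 to 645). The granular tubule products were higher in all 16 genes with 10 UMIs, with a median of 1.05 in all members and 6 of 12 with 50 UMIs called, 0.50 in cluster 12 members with 6 of 11 above 0, and 1.30 in other nuclei.

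Several genes were higher in saline members with values of their own in cluster 12. Brinp3, a gene of the BMP and retinoic acid-inducible family, stood at 335 CPM in saline and 115 CPM in non-irradiated members (ratio 2.90, 2.01 to 4.32), at 686 and 223 CPM in cluster 12 members (3.08, 2.0 to 4.98) and at 22.1 and 13.1 CPM in other nuclei (1.69). In cluster 12, Brinp3 had a UMI in 36 of 124 saline and 13 of 60 non-irradiated members. Of its 198 UMIs in the saline ones, 30 lay in 1 nucleus, while no non-irradiated one held more than 3. Sox9 stood at 253 and 140.4 CPM in all members (1.80, 1.28 to 2.60), at 506 and 242 CPM in cluster 12 members (2.09, 1.36 to 3.34) and at 75.7 and 76.0 CPM in other nuclei (0.997). Adcy2, an adenylyl cyclase, had ratios of 3.86 in all members, 2.25 in cluster 12 members and 5.2 in other nuclei, Pde1c, a calcium-dependent phosphodiesterase, 2.41, 2.04 and 2.05, and Ces1d, a carboxylesterase, 3.05, 4.37 and 7.46. Crisp3 was higher in saline members by 2.33, in cluster 12 members by 1.66 and in other nuclei by 2.46.

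Smgc led the genes that were lower after irradiation. It had 2 UMIs in saline and 94 in non-irradiated members (ratio 0.00668, 0.000797 to 0.0248), and 1 and 18 UMIs in cluster 12 members, with 34.9 and 277 CPM in other nuclei. Sytl1, an effector of secretory vesicle docking, stood at 102 and 223 CPM (0.456, 0.326 to 0.640), and at 65.9 and 252 CPM in cluster 12 members (0.262, 0.137 to 0.491). The DNA damage kinase Atm had ratios of 0.436 in all members, 0.337 in cluster 12 members and 0.825 in other nuclei. Ufl1, a ligase of the UFM modifier, had 0.501, 0.448 and 0.881, Zbtb7a, a transcriptional repressor, 0.425, 0.331 and 0.907, G3bp1, a stress granule protein, 0.369, 0.435 and 0.826, and Dagla, a diacylglycerol lipase, 0.340, 0.358 and 0.832. Csmd1 was lower in all members (0.307) but not in cluster 12 members (1.31, 0.347 to 7.33), where it had 11 and 3 UMIs. Erbb4, a receptor of neuregulins, had a ratio of 0.581 in all members and stood at 478 CPM in saline and 1074 CPM in non-irradiated cluster 12 members (0.445, 0.344 to 0.577), and at 954 and 1509.8 CPM in other nuclei (0.632).

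Pilocarpine after irradiation was last set against no irradiation. In these members 113 of 4821 genes (2.34%) were called higher and 49 (1.02%) lower, or 160 and 28 with TMM scaling of the libraries, and in cluster 12 members 56 of 2092 (2.68%) and 23 (1.10%). In cluster 12 members, 18 of the 113 had 50 UMIs and 13 were called, and 7 of the 49 had 50 UMIs and 1 was called. H2-Q7 stood at 97.2 CPM in pilocarpine and 18 CPM in non-irradiated members (ratio 5.40, 2.23 to 17.0) and at 78.1 and 9.65 CPM in other nuclei. Ifi27l2a, an interferon-induced gene, had ratios of 6.37 in all members, 4.28 in cluster 12 members and 3.12 in other nuclei, and Myo9a, an unconventional myosin, 2.27, 1.88 and 1.79. Bpifa2, a salivary secretory protein, had 65 UMIs in pilocarpine and 1 UMI in non-irradiated members (18.3, 3.17 to 733), while its ratio in other nuclei was 25.

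Unfolded protein response genes leaned higher in pilocarpine members here too. Their median log2 ratio was 0.52 in all members (21 of 23 above 0, 1 of 17 with 50 UMIs called higher, beside 2.34% of all genes), 0.60 in cluster 12 members (17 of 19) and 0.31 in other nuclei, against 0.01 over all genes in members. The p53 and DNA damage list had a median of 0.63 in all members (15 of 22 above 0, 1 of 10 with 50 UMIs called higher), 0.87 in cluster 12 members and 0.72 in other nuclei, and clock repressors had 0.54, 0.57 and 0.54. Granular tubule products had a median of -0.59 in all members (10 of 13 below 0, 4 of 8 with 50 UMIs called lower, beside 1.02% of all genes), but 0.15 in cluster 12 members. Smgc was lower, with 11 UMIs in pilocarpine and 94 in non-irradiated members (ratio 0.0329), and Egf had ratios of 0.436 in all members and 0.989 in cluster 12 members. Thsd7a, a thrombospondin domain gene, kept its direction, with 25.3 and 97.2 CPM in all members (0.260) and 51.7 and 194 CPM in cluster 12 members (0.267, 0.136 to 0.524), against 30.4 and 28.2 CPM in other nuclei (1.08). Csmd1 had a ratio of 0.209 in all members and 1.16 in cluster 12 members.

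**Figure D5:**
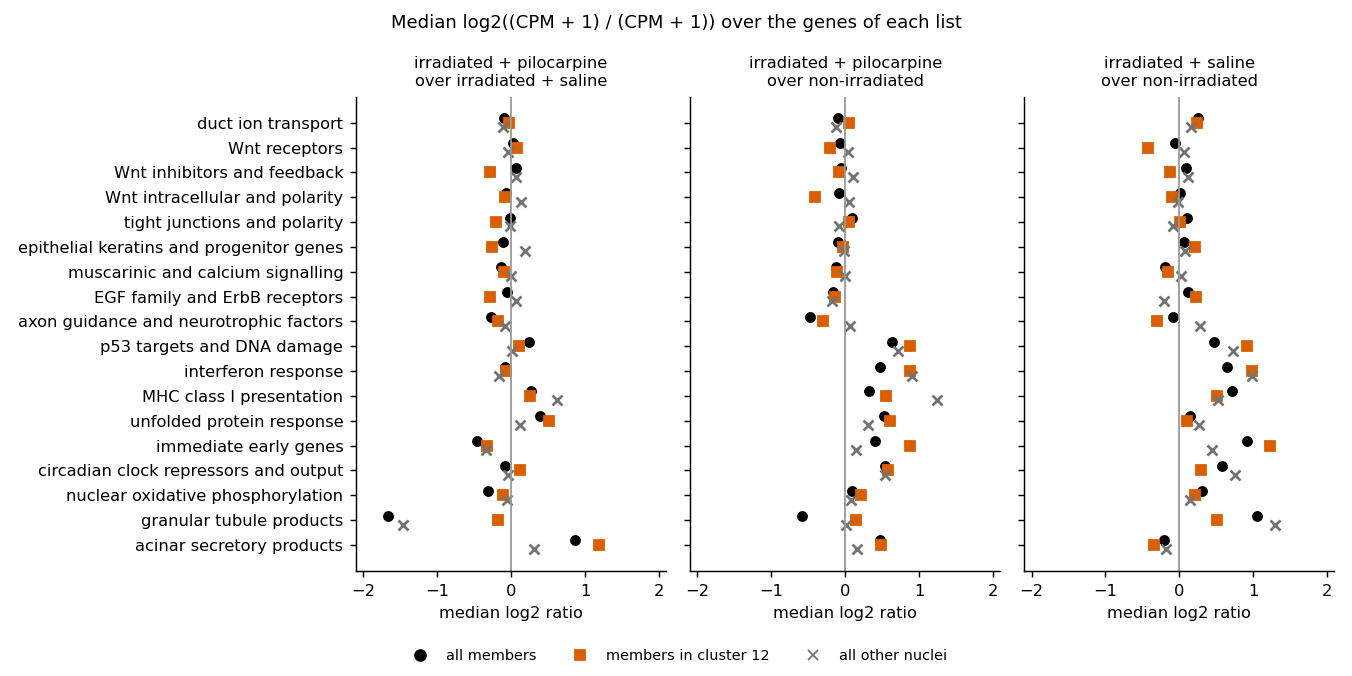
Median log2 ratio of (CPM + 1) over the measured genes of each list, for pilocarpine over saline, pilocarpine over non-irradiated and saline over non-irradiated libraries. Black circles are all members, orange squares members in cluster 12 and grey crosses all other nuclei; granular tubule products are at -1.67 in all members but at -0.17 in cluster 12 members in the first panel.

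For the genes of duct salt transport, Wnt receptors, Wnt inhibitors, Wnt effectors, tight junctions, keratins and progenitor genes, muscarinic and calcium signalling and ErbB signalling, the median log2 ratio in all members lay between -0.19 and 0.25 in each of the 3 comparisons. In cluster 12 members the same lists ranged from -0.43 to 0.24. The lowest were Wnt receptors in saline over non-irradiated (-0.43, 7 of 8 below 0) and Wnt effectors in pilocarpine over non-irradiated (-0.41, 12 of 17 below 0), with medians of 0.06 for both lists in other nuclei and no gene of either called in cluster 12. The medians did not leave these lists without calls. In pilocarpine over saline members, 4 of 24 duct salt transport genes with 50 UMIs were called lower and none higher. Of 7 genes of ErbB signalling, 2 were called lower and none higher, beside 2.40% of all genes called lower. In cluster 12 members 1 of 16 and none of 5 were called lower, beside 1.32% of all genes. Among the 4 duct genes, Sgk1, the kinase that activates the sodium channel, stood at 14.2 CPM in pilocarpine and 43.0 CPM in saline members (ratio 0.330, 0.165 to 0.623), and at 19.8 and 46.3 CPM in other nuclei (0.428). Chrm3 stood at 2588 CPM in pilocarpine, 2036 CPM in saline and 2315 CPM in non-irradiated members. Fkbp5, a glucocorticoid target, had 72.9 and 198 CPM in pilocarpine and saline members (0.368), but 15 and 8 UMIs in cluster 12 members (1.40). Proliferation genes were too low to compare, with 1 of 26 measured at 50 UMIs.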

How the data were processed

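Single-nucleus RNA was counted in 3 libraries, 1 per group, from DAPI-stained, flow-sorted nuclei with 10x 3′ chemistry, per the labels' protocols. The authors deposited raw UMI counts per gene and barcode, made with Cell Ranger 7.0.1 on GRCm38, per the submitters' processing notes. The 3 tables held 32511 barcodes, 32285 genes and 90687012 UMIs: 34322111 in pilocarpine, 29946943 in saline and 26417958 in non-irradiated. Nuclei were kept from 500 detected genes upward and up to 5% mitochondrial UMIs. Scrublet at an expected rate of 6% called 0 doublets, so it did not work and none were removed. Clusters came from scanpy 1.11.5 (3000 variable genes, 30 principal components, 15 neighbours, Leiden resolution 1), and a cluster was named only from at least 3 fixed markers.

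UMI counts were summed over the members of a library and divided by their total (CPM). Ratios carry exact conditional binomial intervals, shares Clopper-Pearson and differences of shares Newcombe intervals, all at 95%, for counting error only. List medians use log2 of (CPM + 1) over genes with at least 10 UMIs. Members and lists were chosen with earlier results of these data known. Named genes are the 16 of the rule, the 25 highest in members over other nuclei by the lowest interval bound, and per comparison the 8 most above and 8 most below by the bound nearest to 1 (4 and 4 for pilocarpine over non-irradiated), with the list members of largest ratio. The code was tested on simulated data. TMM factors came from edgeR 4.0.16 under R 4.3.3, which gave no test here.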

Additional observations from a re-analysis of the deposited data

How the results depend on the processing

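No paired analysis was possible because 1 library stood for each group. The excess of the member share in saline over non-irradiated (1.56 points) was 1.11 with at least 4 of 8 markers, 0.783 thinned to 1000 UMIs, 0.874 in cluster 12, 1.12 for all nuclei of cluster 12 and 0.578 thinned and in cluster 12. That of pilocarpine over non-irradiated (1.73) was 1.12 with at least 4 markers, 1.29 with no gene of another lineage, 0.850 thinned, 1.31 in cluster 12 and 0.752 thinned and in cluster 12, and that of pilocarpine over saline (0.163) was 0.951 for all nuclei of cluster 12. All nuclei of cluster 12, thinning within it and equal weight for each nucleus were chosen after seeing the data. Genes called in saline over non-irradiated (132 higher, 42 lower) came to 86 higher with no gene of another lineage, 19 and 12 thinned, 53 and 23 in cluster 12, 258 and 248 with no UMI minimum, and 75 lower without the highest doublet scores. Those in pilocarpine over saline (49 higher, 150 lower) came to 32 higher with no gene of another lineage, 16 and 35 thinned, 78 and 38 in cluster 12, 248 and 440 with no UMI minimum, and 149 higher without the highest doublet scores. Those in pilocarpine over non-irradiated (113 higher, 49 lower) came to 72 higher with no gene of another lineage, 15 and 8 thinned, 56 and 23 in cluster 12, 234 and 289 with no UMI minimum, and 28 lower with TMM scaling. Thinning leaves fewer UMIs and cluster 12 fewer nuclei, and for the other settings the cause was not tested. Ratios that changed side were Csmd1 in saline over non-irradiated, at 2.97 with at least 4 markers, 1.63 with no gene of another lineage, 1.31 in cluster 12 and 1.10 with equal weights, and Klk1b22 at 0.716 in cluster 12. In pilocarpine over saline they were Egf at 1.00, Fkbp5 at 1.40, Klk1b22 at 1.37 and Zfp804b at 2.24 in cluster 12, Samd9l at 1.34 thinned and Sntg1 at 0.892 with no gene of another lineage. In pilocarpine over non-irradiated they were Csmd1 at 2.09 with at least 4 markers and 1.16 in cluster 12, Klk1b21 at 1.57 with equal weights, and the granular tubule median at 0.11 thinned and 0.15 in cluster 12. Of the other gene ratios under an alternative, 1150 stayed within their interval and 226 moved beyond it. With equal weight for each nucleus alone, 138 stayed and 42 moved.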

Other observations

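A ranking of genes within cluster 12 members alone, made after the values were seen, gave genes that the comparisons over all members did not name. Plppr4, a phospholipid phosphatase-related membrane protein, stood at 236 CPM in saline and 48.4 CPM in non-irradiated cluster 12 members (ratio 4.87, counting interval 1.99 to 15.5), with a UMI in 39 of 124 and 4 of 60 nuclei, and at 27.1 and 38.0 CPM in other nuclei (0.714). Kif26b, an atypical kinesin, stood at 267 CPM in saline and 38.7 CPM in non-irradiated cluster 12 members (6.89, 2.59 to 25.9), with a ratio of 2.41 in other nuclei. It had 77 UMIs in 29 of 124 saline nuclei, 13 of them in 1 nucleus, and 4 UMIs in 3 of 60 non-irradiated nuclei.

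In pilocarpine over saline cluster 12 members, Dach2 stood at 209.6 and 509 CPM (0.411), with a UMI in 50 of 157 and 52 of 124 nuclei, against 1.14 in other nuclei. Ppp2r2b, a regulatory subunit of protein phosphatase, stood at 122 CPM in pilocarpine and 34.7 CPM in saline cluster 12 members (3.51, 1.75 to 7.79), and the non-irradiated level was 135 CPM. Cp, the ferroxidase ceruloplasmin, had a ratio of 8.66 there, but 44 of its 58 UMIs in the pilocarpine library lay in 1 nucleus. In pilocarpine over non-irradiated cluster 12 members, the RNA-binding gene Rbpms stood at 135 and 319 CPM (0.421, 0.267 to 0.673), while its ratio in other nuclei was 1.59.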
